A study of Mus musculus with 12 samples.

Results

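Calcium signalling at egg activation was followed through 10 genes, chosen by name, of the 24062 genes counted in mouse oocytes. They were the PLC-like gene Plcl1, the IP3 receptor gene Itpr1, the entry channel genes Trpm7 and Cacna1h, the store-operated pair Stim1 and Orai1, the pump genes Atp2a2 and Atp2b1, and the effector genes Camk2g and Ppp3ca. Plcl1 was picked for its near absence in one diet, so its difference between the diets is described without a test, while the other 9 were listed for their roles. After the filter on low counts 8 of the 10 could be tested, because Plcl1 and Stim1 did not pass it.

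RNA was sequenced from 12 pools of 4 oocytes each. The high-fat diet (HFD) group had 6 pools, from females fed a high-fat, high-calorie feed for 9 weeks, and the control diet (CD) group had 6 pools, from females fed the control feed over that time. All females then ate the control feed during mating with vasectomized males, and their oocytes were taken on day 0.5 after coitus. In the labels both feeds carry 1 product code, with the HFD described as modified. The sources used here give neither strain nor age. The labels do not say which female gave which pool, so p-values measure the spread between pools, part of which may be technical. In pooled RNA, fewer cells of a type and less RNA per cell cannot be told apart.

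Fertilisation sets off repeated rises of free calcium in the egg. The sperm brings the phospholipase PLC zeta, which cleaves the membrane lipid PIP2 to release IP3, and IP3 opens receptors on the endoplasmic reticulum. Entry channels and pumps keep the store filled, and calmodulin-dependent kinase and phosphatase carry the signal on to the end of meiosis. Vasectomized males deliver no sperm, so these eggs were collected as unfertilised.

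Depth, as the sum over genes, lay at 8409491 to 13793598 counts in the HFD libraries and at 8556396 to 10477316 in the CD libraries. Levels are CPM, TMM-scaled read counts relative to library size, and ± marks the SD over the 6 libraries of a diet unless an SE is named. Log2 fold changes are HFD over CD, with their SE after ±. The oocyte genes Gdf9, Bmp15 and Mos were present in every library, but 4 libraries stood apart. In HFD replicates 1 and 2 and CD replicates 2 and 4, Gdf9, an oocyte growth factor, lay between 543 and 616 CPM, against 4601 to 9642 CPM in the other 8. In the same 4 libraries Mos, the kinase that holds the egg in metaphase, lay between 3.84 and 9.40 CPM, against 146 to 1702 CPM. HFD replicate 3 stood apart in another way, with 14755 genes detected against 12229 to 13052 in the remaining 11 libraries and 3942 CPM of the zona gene Zp3. Some of the results that rest on these libraries are given with and without them.

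The promoters of Plcl1 and Orai1 are shown because these 2 members differed most between libraries. Each is the RefSeq window (GRCm38.p6, plus strand) from 250 bases before to 50 bases after the annotated start. The sequence for Plcl1 is chr1:55405696-55405995 and that for Orai1 is chr5:123014824-123015123. Capitals mark 3 motifs searched on both strands, the E-box CANNTG, the CCAAT box and the GC box GGGCGG.
Plcl1: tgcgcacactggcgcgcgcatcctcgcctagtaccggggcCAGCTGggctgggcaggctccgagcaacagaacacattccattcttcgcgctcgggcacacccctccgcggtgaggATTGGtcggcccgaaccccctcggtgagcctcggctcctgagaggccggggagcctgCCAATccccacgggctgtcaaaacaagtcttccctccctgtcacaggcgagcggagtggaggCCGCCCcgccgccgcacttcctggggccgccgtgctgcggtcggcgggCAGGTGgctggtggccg
Orai1: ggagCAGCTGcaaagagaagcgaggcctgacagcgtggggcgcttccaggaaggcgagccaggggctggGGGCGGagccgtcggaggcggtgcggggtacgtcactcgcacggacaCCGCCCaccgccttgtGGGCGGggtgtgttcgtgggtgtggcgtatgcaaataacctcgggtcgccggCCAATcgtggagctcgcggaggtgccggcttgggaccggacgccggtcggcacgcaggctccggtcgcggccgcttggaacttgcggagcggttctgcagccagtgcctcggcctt
The Plcl1 window held 2 E-boxes, 2 CCAAT boxes and 1 GC box, and the Orai1 window 1 E-box, 1 CCAAT box and 3 GC boxes. Over the 32851 promoter windows of that length in the table, 72.3% held an E-box, 37.4% a CCAAT box and 35.7% a GC box. G and C made up 70.7% of the Plcl1 window and 70.3% of the Orai1 window. Of the 10 members, 5 had an entry in the table.

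Plcl1 encodes PRIP-1, a protein built like a phospholipase C that lacks the enzyme's activity and binds IP3 (chromosome 1, 55405921 to 55754285, mm10). The 6 HFD libraries held 0, 0, 2, 0, 0 and 0 reads of Plcl1 in replicates 1 to 6. The 6 CD libraries held 45, 9, 131, 47, 0 and 80 reads. In CPM of total gene counts that was 0.238 in HFD replicate 3, with an exact (Clopper-Pearson) 95% interval of 0.0288 to 0.859. Among the CD libraries it was 4.89 in replicate 1, 0.890 in replicate 2, 12.5 in replicate 3, 5.49 in replicate 4 and 7.83 in replicate 6. Thus 5 of the 6 CD libraries held Plcl1 reads and 5 of the 6 HFD libraries held none, but the groups overlapped because CD replicate 5 held none either. A library with 0 reads allows a level of up to 0.217 to 0.325 CPM in HFD and up to 0.329 CPM in CD replicate 5, taking 3 counts of its total. Every count in HFD replicates 1, 2, 4 and 6 was even, so their reads may have been tallied 2 times each. With those libraries halved, the limits in the 5 HFD libraries without Plcl1 reads ran from 0.325 to 0.606 CPM, under the point values of the 5 CD libraries that held it. The exact 95% interval of CD replicate 2, 0.407 to 1.69 CPM, takes in the higher of these limits. Because Plcl1 was picked for its near absence in HFD, no separation from any CD library is read from these limits.

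Summed over libraries, Plcl1 had 2 of 63660675 counts in HFD and 312 of 57673816 in CD, a ratio of 0.00581 with an exact 95% interval of 0.000700 to 0.0212. This interval covers counting error only, not the spread between pools, and reads without molecular identifiers are not independent molecules. Plcl1 was picked for this difference, so the intervals of the ratio describe the counts and are no test of diet. Without CD replicate 3, which held the most, the ratio was 0.00819, and without the 4 libraries low in Gdf9 it was 0.00780. Without HFD replicate 3, which held both HFD reads, it was 0 with an upper bound of 0.0124. With the all-even libraries halved it was 0.00909, with an interval of 0.00110 to 0.0331. The mean log2 CPM with a prior count of 2 differed by −3.68 between HFD and CD, and by −4.45 to −3.24 with each library left out. It was −5.07 with a prior count of 0.5, so the size of the difference depends on how zeros are handled. Of the 4 CD libraries with 45 or more Plcl1 reads, 1 was low in Gdf9 (replicate 4) and 3 were not. No exon of another annotated gene overlaps those of Plcl1, and the processed pseudogene Gm6644 lies within its bounds on the other strand.

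**Figure D1:**
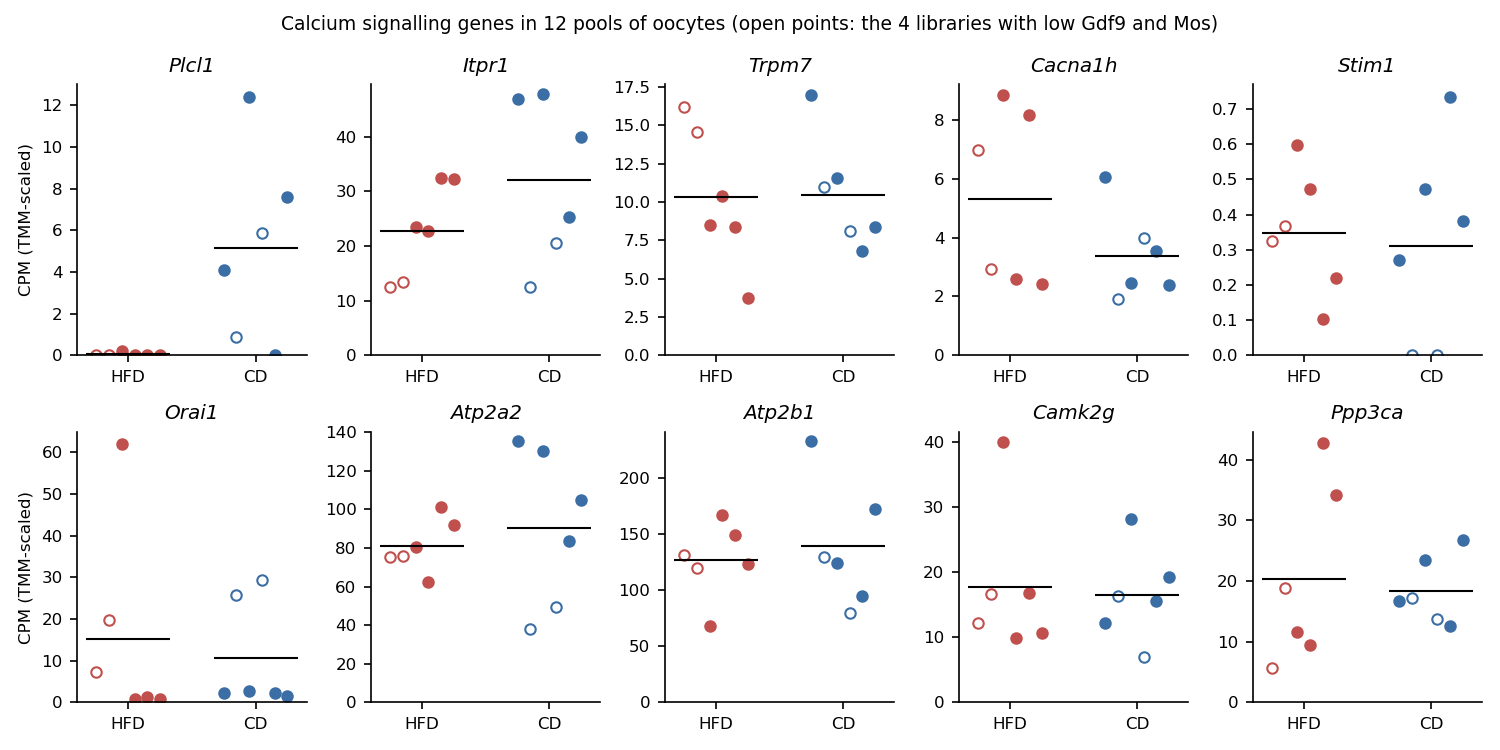
Each point is 1 library and gives the TMM-scaled CPM of a member (vertical axes, linear, from 0), HFD on the left and CD on the right, with a line at the mean of 6. Open points are the 4 libraries with low Gdf9 and Mos; Plcl1 reaches 12.4 CPM in CD and at most 0.199 CPM in HFD, and all 10 members overlap between the diets, Plcl1 through CD replicate 5 at 0.

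The 5 tested genes whose log2 CPM followed Plcl1 most closely over the 12 libraries were Sh2b3 (Pearson r = 0.893), Ints5 (0.887), Akt2 (0.856), Pola2 (0.831) and C1ql3 (0.827). These are descriptions over 12 libraries, and 12 tested genes had an r above 0.8. Sh2b3 encodes an adaptor that restrains cytokine receptor signalling, Akt2 a kinase of the insulin pathway, and Pola2 a subunit of the polymerase that primes DNA replication. Sh2b3 averaged 4.99 ± 1.10 CPM in HFD and 10.3 ± 4.56 CPM in CD, and its highest HFD library at 6.26 CPM lay just under its lowest CD library at 6.29 CPM, which was replicate 5. CD replicate 3 was the highest library for Plcl1, Sh2b3, Ints5, Akt2 and C1ql3 alike. CD replicate 5, where Plcl1 was absent, was the lowest CD library for all 5 similar genes. Because Plcl1 was chosen for its diet difference, genes like it differ between the diets by that choice. Agreement in the highest and lowest CD libraries likewise follows from choosing these genes by their correlation with Plcl1.

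**Figure D2:**
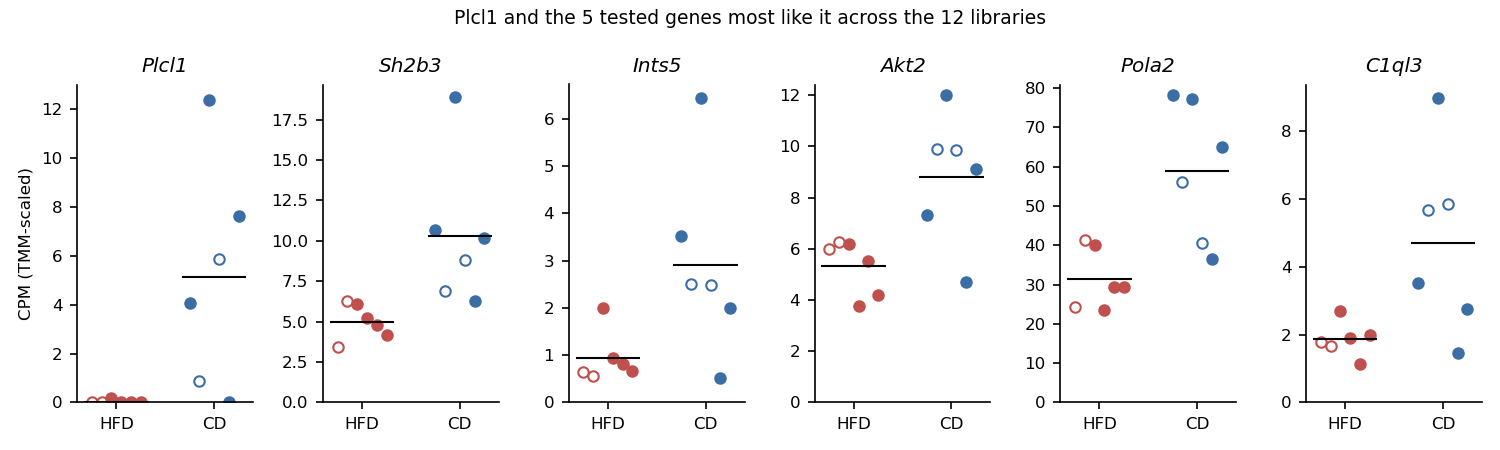
Points are the TMM-scaled CPM (linear axes, from 0) of Plcl1 and the 5 tested genes with the highest Pearson correlation to it, by library, HFD left of CD, with a line at each mean. Open points are the 4 libraries with low Gdf9 and Mos, and CD replicate 3 is the highest point for every gene shown except Pola2.

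Markers of other cells that a pool could carry were summed per library. The list for stroma, muscle and endothelium ran from 30.6 to 43.7 CPM in HFD and from 21.8 to 155 CPM in CD (exact permutation test, two-sided, p = 0.253; adjusted over 6 lists, 0.760). Its highest library was CD replicate 3, the one with most Plcl1 reads, through Pecam1 at 143 CPM, whereas Cdh5 was at 0 in all 12 libraries. Cumulus and granulosa markers ran from 119 to 1822 CPM in HFD and from 140 to 1356 CPM in CD (exact permutation test, p = 0.874; adjusted, 0.874), with 92.4% of the sum from Serpine2 and with Ptx3 and Amh at 0 everywhere. In the 4 libraries low in Gdf9, Serpine2 ran from 71.0 to 125 CPM, against 303 to 1764 CPM in the other 8. The sum thus mostly followed the split in Gdf9, and its range is not read as a measure of cumulus cells. Cyp11a1, on the same list and named after its values were seen, stood at 49.4 CPM in CD replicate 1, a library with 45 Plcl1 reads. It stood at 6.32 CPM in HFD replicate 1 and at most at 1.10 CPM in the other libraries. Oviduct markers ran from 6.44 to 31.9 CPM in HFD and from 8.22 to 13.1 CPM in CD (exact permutation test, p = 0.526; adjusted, 0.795). Blood and immune markers ran from 2.49 to 9.39 CPM in HFD and from 2.19 to 7.40 CPM in CD (exact permutation test, p = 0.727; adjusted, 0.873). Oocyte markers ran from 3074 to 21205 CPM in HFD and from 2785 to 13033 CPM in CD (exact permutation test, p = 0.530; adjusted, 0.795). The part of other cells in the Plcl1 counts was not tested.

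The sperm list was checked because PLC zeta comes with sperm. Plcz1 had no read in any of the 12 libraries, as had Tnp1 and Izumo1. The summed sperm markers ran from 3.75 to 20.2 CPM in HFD and from 0.945 to 5.99 CPM in CD (exact permutation test, p = 0.0216; adjusted over 6 lists, 0.130). Of that sum 85.1% came from Prm2, at 8.81 ± 6.26 CPM in HFD pools against 2.87 ± 1.69 CPM in CD pools, a gene named here after its values were seen. Its log2 fold change was 1.62 ± 0.57 (edgeR, adjusted p = 0.129), and 0.50 with each library's trend of level with transcript length removed.

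No gene passed the adjusted threshold of 0.05 between the diets by edgeR, which called 0% of the 9935 genes tested, so none of the 8 members tested could be called. At an unadjusted p under 0.05 there were 2215 genes, 22.3% of those tested, and none of them was a member. DESeq2 called 7.74% of the genes and limma-voom 0.352%, and neither called a member. A missed threshold does not show equal levels, so each member is given with its standard error.

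**Figure D3:**
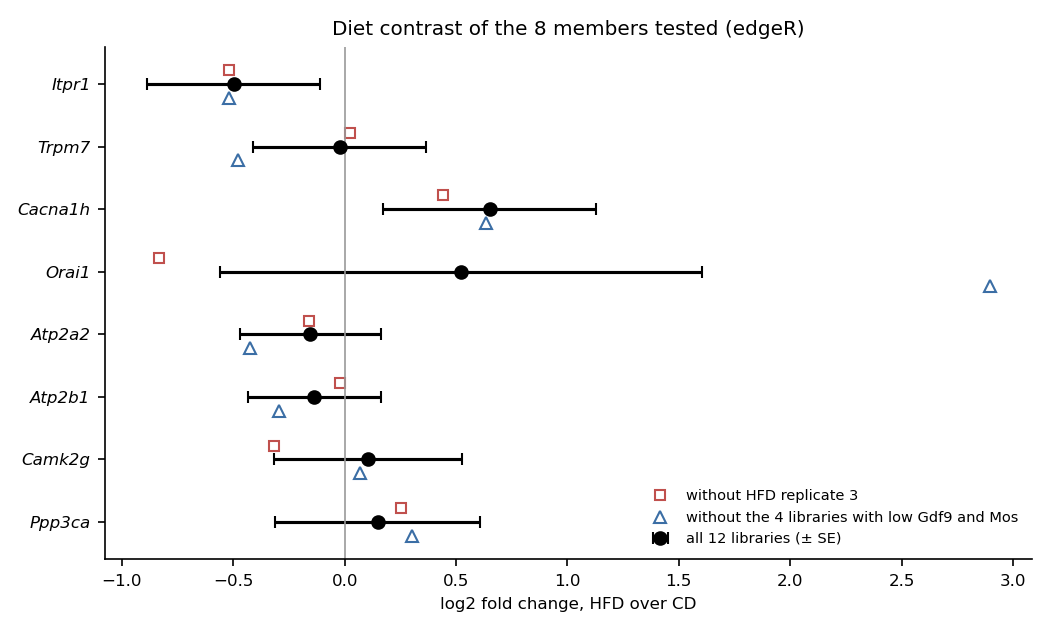
Log2 fold changes of HFD over CD (horizontal axis) for the 8 members tested, with black points and SE bars for all 12 libraries, red squares without HFD replicate 3 and blue triangles without the 4 libraries low in Gdf9 and Mos. Orai1 moves between −0.84 and 2.90, whereas Itpr1 stays between −0.52 and −0.50.

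Itpr1 encodes the type 1 IP3 receptor, known as the main calcium release channel of mouse eggs (chromosome 6, 108213096 to 108551109). Its levels were 12.5, 13.4, 23.4, 22.7, 32.5 and 32.2 CPM in HFD replicates 1 to 6. They were 46.9, 12.5, 47.8, 20.6, 25.4 and 39.9 CPM in CD replicates 1 to 6. The 4 libraries low in Gdf9 were also the 4 lowest for Itpr1, and the diets overlapped. The log2 fold change was −0.50 ± 0.39 (SE; edgeR, adjusted p = 0.472) and ran from −0.67 to −0.37 with each library left out.

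Itpr2 and Itpr3, the paralogs of Itpr1, were counted beside it on a scale per kilobase of exon. Itpr2 was the highest of the 3 in 12 of 12 libraries, at 23.8 ± 5.17 CPM per kb in HFD and 14.7 ± 5.78 CPM per kb in CD. Itpr1 stood at 1.24 ± 0.47 CPM per kb in HFD and 1.76 ± 0.81 CPM per kb in CD. Itpr3 stood at 0.0713 ± 0.0615 CPM per kb in HFD and 0.208 ± 0.297 CPM per kb in CD, with CD replicate 3 the highest library. Itpr2 thus held 91.1% to 97.4% of the summed IP3 receptor level in HFD and 74.1% to 93.5% in CD. For Itpr2 itself the log2 fold change was 0.69 ± 0.31 (edgeR, adjusted p = 0.204). Of the HFD libraries, 5 lay above the CD mean and replicate 3 just below it. Exons of antisense genes overlap Itpr1 by at most 181 nt, and the library chemistry does not mark strand.

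Trpm7 encodes a channel with a kinase domain that carries calcium and magnesium into the egg (chromosome 2, 126791565 to 126876230). Its levels were 16.2, 14.5, 8.47, 10.4, 8.39 and 3.75 CPM in HFD replicates 1 to 6. They were 17.0, 11.0, 11.5, 8.10, 6.81 and 8.37 CPM in CD replicates 1 to 6. The ranges overlapped, and the log2 fold change was −0.02 ± 0.39 (edgeR, adjusted p = 0.978), or −0.48 without the 4 libraries low in Gdf9.

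Cacna1h encodes the pore of a T-type calcium channel that refills the store of mouse eggs (chromosome 17, 25374285 to 25433783). Its levels were 6.97, 2.95, 8.87, 2.60, 8.18 and 2.43 CPM in HFD replicates 1 to 6. They were 6.06, 1.92, 2.46, 3.99, 3.56 and 2.38 CPM in CD replicates 1 to 6. HFD replicates 1, 3 and 5 lay above every CD library and the other 3 among them, and the log2 fold change was 0.65 ± 0.48 (edgeR, adjusted p = 0.441). Cacna1h was the highest of the 3 T-type genes per kilobase in 12 of 12 libraries. Its 3 prime neighbour Tpsg1, on the other strand, shares 158 nt of exon with it.

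Stim1 encodes the sensor that reports an empty store to Orai1 (chromosome 7, 102267806 to 102437319). It had 4, 4, 6, 4, 1 and 2 reads in HFD replicates 1 to 6, and 3, 0, 5, 0, 7 and 4 reads in CD replicates 1 to 6. At this depth a difference in Stim1 was not detectable, and it did not pass the filter on low counts. Without the filter its log2 fold change was 0.09 ± 1.18 (edgeR, adjusted p = 0.980).

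Stim2, the paralog of Stim1, was the higher of the pair per kilobase in 12 of 12 libraries. Its levels were 0.811, 0.736, 21.8, 39.9, 15.4 and 9.49 CPM in HFD replicates 1 to 6. They were 23.1, 1.63, 15.6, 0.249, 10.2 and 19.4 CPM in CD replicates 1 to 6. The 4 libraries low in Gdf9 and Mos were the 4 lowest, in both diets, and the diet contrast of Stim2 was 0.33 ± 0.95 (log2; edgeR, adjusted p = 0.870). Without HFD replicate 4 it was −0.29, so no direction is read from Stim2.

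Orai1 encodes the plasma-membrane channel that Stim1 opens (chromosome 5, 123015074 to 123030456). Its levels were 7.30, 19.7, 61.9, 0.709, 1.33 and 0.883 CPM in HFD replicates 1 to 6. They were 2.26, 25.7, 2.84, 29.4, 2.31 and 1.62 CPM in CD replicates 1 to 6. The 4 libraries low in Gdf9, together with HFD replicate 3, held the 5 highest values, and the other 7 libraries stayed at or under 2.84 CPM. The log2 fold change of 0.52 ± 1.08 (edgeR, adjusted p = 0.811) turned to −0.84 without HFD replicate 3 and was 2.90 without the 4 libraries low in Gdf9. No direction between the diets is read from Orai1.

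Orai3 was higher than Orai1 per kilobase in 7 of 12 libraries, and Orai1 in the 5 libraries where it was abundant. Orai3 had 6.01 ± 4.10 CPM in HFD pools against 10.6 ± 5.04 CPM in CD pools (log2 fold change −0.82 ± 0.53; edgeR, adjusted p = 0.371). Orai2 had no read in any library.

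**Figure D4:**
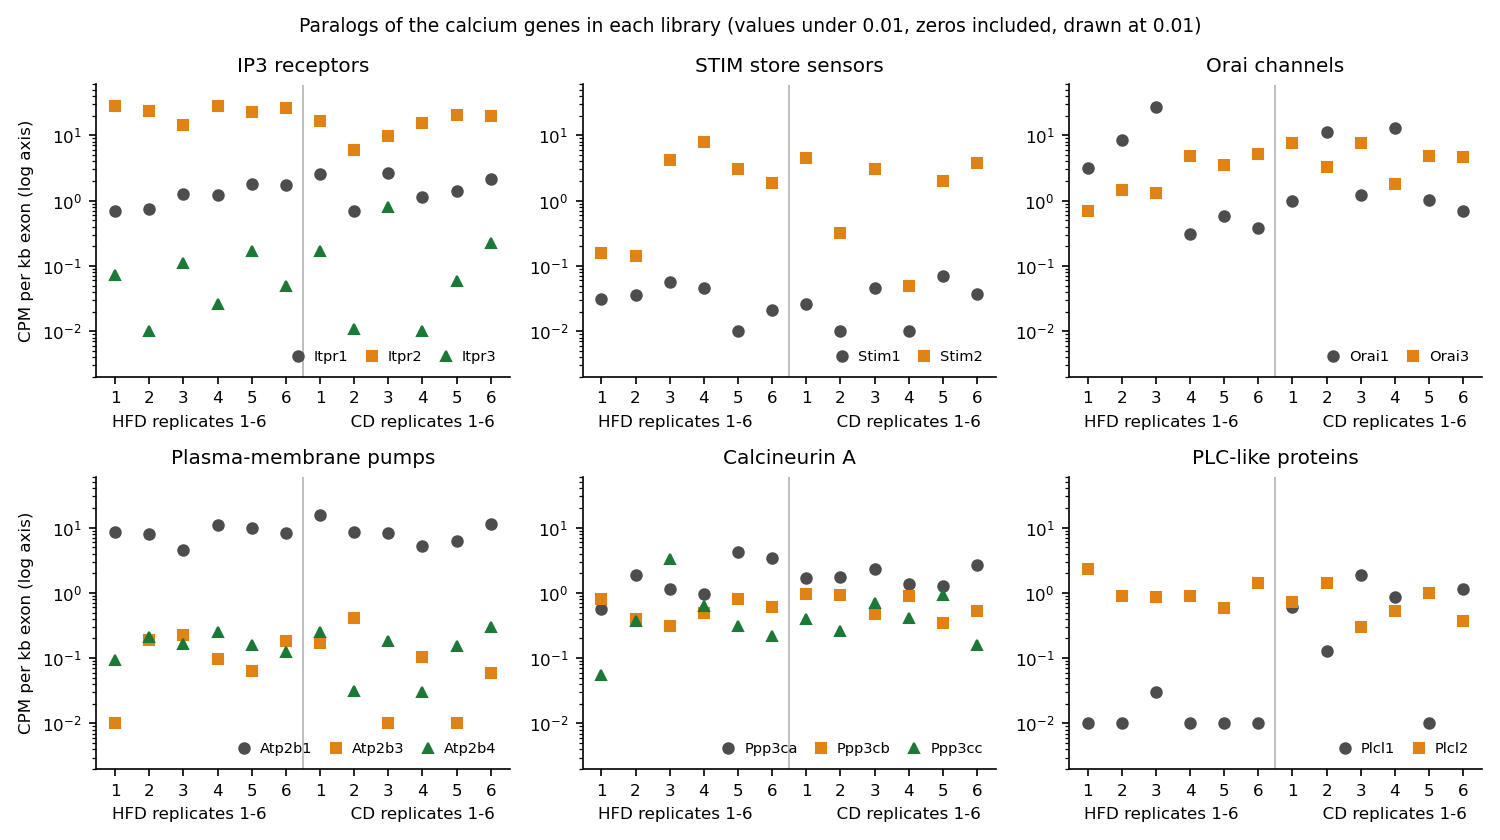
Levels of members and their paralogs in CPM per kilobase of exon (vertical log axes) in HFD replicates 1 to 6 and then CD replicates 1 to 6, with values under 0.01 drawn at 0.01. Itpr2 lies above Itpr1, and Stim2 above Stim1, in all 12 libraries, and Orai1 exceeds Orai3 in 5 of them.

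Atp2a2 encodes the SERCA2 pump that returns calcium to the endoplasmic reticulum (chromosome 5, 122453513 to 122502225). Its levels were 75.2, 75.9, 80.6, 62.4, 101 and 91.8 CPM in HFD replicates 1 to 6. They were 135, 38.0, 130, 49.5, 83.8 and 105 CPM in CD replicates 1 to 6. The CD libraries spread wider, at 90.3 ± 40.7 CPM, than the HFD libraries at 81.2 ± 13.7 CPM, and CD replicates 2 and 4, low in Gdf9, were the lowest of all. The log2 fold change was −0.15 ± 0.32 (edgeR, adjusted p = 0.811). The other SERCA genes, Atp2a1 and Atp2a3, were at 0 in 11 of 12 libraries each.

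Atp2b1 encodes the PMCA1 pump that expels calcium through the plasma membrane (chromosome 10, 98914406 to 99026143). Its levels were 132, 120, 68.4, 167, 150 and 124 CPM in HFD replicates 1 to 6. They were 233, 130, 125, 80.1, 95.3 and 173 CPM in CD replicates 1 to 6. CD replicate 1 was highest and HFD replicate 3 lowest, and the log2 fold change was −0.14 ± 0.30 (edgeR, adjusted p = 0.821). Atp2b1 held 89.7% to 98.9% of the summed PMCA level per kilobase over the 12 libraries.

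Camk2g encodes the gamma form of calmodulin-dependent kinase II, which drives the egg out of metaphase in mice (chromosome 14, 20734875 to 20794088). Its levels were 12.2, 16.6, 39.9, 9.93, 16.8 and 10.6 CPM in HFD replicates 1 to 6. They were 12.2, 16.3, 28.1, 6.98, 15.6 and 19.2 CPM in CD replicates 1 to 6. The third replicate was the highest library in each diet. The log2 fold change was 0.11 ± 0.42 (edgeR, adjusted p = 0.904), and −0.32 without HFD replicate 3. Camk2g made up 96.1% to 100% of the kinase II level per kilobase over the 12 libraries, with Camk2a at 0 in all of them.

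Ppp3ca encodes the alpha catalytic subunit of calcineurin, a calcium-dependent phosphatase (chromosome 3, 136670124 to 136937727). Its levels were 5.67, 18.8, 11.6, 9.46, 42.8 and 34.2 CPM in HFD replicates 1 to 6. They were 16.7, 17.2, 23.5, 13.7, 12.6 and 26.7 CPM in CD replicates 1 to 6. HFD replicates 5 and 6 lay above every CD library and HFD replicates 1, 3 and 4 below every one, and the log2 fold change was 0.15 ± 0.46 (edgeR, adjusted p = 0.879). Ppp3ca was the highest catalytic subunit per kilobase in 10 of 12 libraries, Ppp3cb in HFD replicate 1 and Ppp3cc in HFD replicate 3.

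By level per kilobase of exon over the 12 libraries, Atp2a2 came first at 14.1 ± 4.83 CPM per kb and Atp2b1 next at 8.74 ± 2.93, the order holding in 10 of 12 libraries. With the longest transcript as the length these 2 changed places, and the other 8 kept theirs. Orai1 at 5.66 ± 8.09 CPM per kb exceeded Camk2g at 2.66 ± 1.41 in 5 of 12 libraries, so that pair has no stable order. Ppp3ca at 1.94 ± 1.08 CPM per kb exceeded Itpr1 at 1.50 ± 0.69 in 6 of 12. Trpm7 at 0.917 ± 0.348 CPM per kb exceeded Cacna1h at 0.447 ± 0.254 in 10 of 12. Plcl1 at 0.386 ± 0.610 CPM per kb and Stim1 at 0.0317 ± 0.0218 were lowest, with Plcl1 the higher in 5 of 12, all of them CD. These means pool the diets. Plcl1 alone stood at 0.00497 ± 0.0122 CPM per kb in the HFD libraries and at 0.767 ± 0.685 in the CD libraries, where its mean lay above that of Cacna1h at 0.348 ± 0.156.

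Plcl2, which encodes the related protein PRIP-2, was read in every library. It had 7.70 ± 4.23 CPM in HFD pools against 4.83 ± 2.83 CPM in CD pools (log2 fold change 0.67 ± 0.47; edgeR, adjusted p = 0.421). Per kilobase it made up 96.6% to 100% of the PLC-like pair in HFD and 13.9% to 100% in CD, and Plcl1 exceeded it in CD replicates 3, 4 and 6. Among active phospholipases C, Plce1, named after its values were seen, was the highest per kilobase in 12 of 12 libraries, with 50.3% to 80.7% of their sum in HFD and 51.1% to 84.6% in CD. Plcb2, Plcd4 and Plch2 had no read.

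The 10 lists of the wider pathway held 97 tested genes between them, counted once each, and by edgeR none was called. At an unadjusted p under 0.05 there were 18, or 18.6%, against 22.3% of all genes tested, so the pathway did not hold more of them than the background. DESeq2 called 8 of the 97, or 8.25%, against 7.74% of all. Among these, Calm2, Vdac2 and Gabarapl2 were higher in HFD, and Inpp5a, Inpp5e, Calu and Prkcb were lower, the last named after its values were seen.

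IP3 and PIP2 metabolism had 17 of 26 genes tested, of which 7 had positive and 10 negative fold changes. The median was −0.31 on the log2 scale, against 0.04 over all genes tested, and ran from −0.59 to −0.056 with each library left out. Inpp5a encodes the phosphatase that ends the IP3 signal. It stood at 12.6, 14.7, 19.3, 20.1, 22.4 and 18.5 CPM in HFD replicates 1 to 6 and at 33.5, 22.1, 42.3, 27.4, 38.8 and 27.5 CPM in CD replicates 1 to 6. Only HFD replicate 5 lay above a CD library, replicate 2, and the log2 fold change was −0.83 ± 0.28 (edgeR, adjusted p = 0.118; DESeq2, 0.0269). Inpp5e, a lipid phosphatase of cilia in other cells, had 1.51 ± 0.27 CPM in HFD pools against 5.07 ± 3.44 CPM in CD pools (log2 fold change −1.75 ± 0.53; edgeR, adjusted p = 0.100; DESeq2, 0.0191). Every HFD library lay below the CD mean for both genes. For Inpp5e, however, CD replicates 4 and 6, at 1.49 and 1.52 CPM, lay within the HFD range of 1.13 to 1.79 CPM. No HFD library held more than 18 reads of Inpp5e.

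The list of calmodulin, kinases, calcineurin and protein kinase C had 17 of 29 genes tested and a median of 0.07. Calm2, which encodes calmodulin, stood at 120, 146, 944, 78.2, 45.9 and 48.3 CPM in HFD replicates 1 to 6 and at 30.4, 42.4, 16.3, 61.2, 18.4 and 30.6 CPM in CD replicates 1 to 6. Its log2 fold change of 2.79 ± 0.73 (edgeR, adjusted p = 0.0913; DESeq2, 0.00318) was 1.39 without HFD replicate 3. With each library's length trend removed the Calm2 value was 1.86. Reads of Calm2 may be split with pseudogene copies, so its counts are uncertain.

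Of 11 counted genes of mitochondrial calcium uptake, 10 were tested, 7 with positive and 3 with negative fold changes. The median was 0.69 on the log2 scale, and 0.32 when the 4 HFD libraries with only even counts were left out. At an unadjusted p under 0.05, 5 of the 10 were higher and none lower, against 13.4% higher and 8.89% lower over all genes. The 3 negative values were Mcu at −0.16 ± 0.25, Vdac1 at −0.45 ± 0.25 and Letm1 at −0.56 ± 0.37, genes named after their values were seen. Vdac2, an outer-membrane pore, had 67.1 ± 30.7 CPM in HFD pools against 32.0 ± 10.8 CPM in CD pools (log2 fold change 1.07 ± 0.34; edgeR, adjusted p = 0.105; DESeq2, 0.0334). Ccdc109b, the dominant-negative subunit of the calcium uniporter, had 264 ± 74.9 CPM in HFD pools against 167 ± 45.3 CPM in CD pools (log2 fold change 0.66 ± 0.26; edgeR, adjusted p = 0.166).

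Calcium-binding proteins of the endoplasmic reticulum had 10 of 11 genes tested and a median of 0.13. Calu, or calumenin, had 29.5 ± 11.3 CPM in HFD pools against 67.7 ± 26.3 CPM in CD pools (log2 fold change −1.20 ± 0.35; edgeR, adjusted p = 0.0968; DESeq2, 0.0211), and Erp44, a chaperone that binds the IP3 receptor, had 0.88 ± 0.43. Pumps and exchangers had 6 of 14 tested and a median of −0.04, with Tmco1, a calcium leak channel, at 0.89 ± 0.34 and Atp2c1, a Golgi pump, at −0.93 ± 0.43. Without CD replicate 3, which held 460 CPM of Atp2c1, that value was −0.42.

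With a library left out, the medians of 8 of the 10 lists could take either sign, so no direction is read from them; IP3 and PIP2 metabolism stayed negative and mitochondrial uptake positive. Of the remaining lists, IP3 and ryanodine receptors had 4 of 6 tested and a median of −0.09, and phospholipases 6 of 15 and 0.12. Entry channels and sensors had 8 of 23 tested and a median of 0.03. Genes of cortical granule release had 12 of 20 and a median of −0.18, with Rph3a at −0.44 ± 0.31. Proteins known to bind PRIP had 8 of 10 tested and a median of −0.07. Among them Gabarapl2, an autophagy and receptor-trafficking protein, was the only tested gene of the 10 lists whose diets did not overlap, against 2.45% of all genes tested. Gabarapl2 stood at 25.9, 24.9, 26.4, 18.9, 17.1 and 18.3 CPM in HFD replicates 1 to 6 and at 10.5, 13.7, 9.07, 11.8, 15.5 and 12.9 CPM in CD replicates 1 to 6. Its log2 fold change was 0.84 ± 0.28 (edgeR, adjusted p = 0.116, and DESeq2, adjusted p = 0.0171). With each library's length trend removed the Gabarapl2 value was 0.53.

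**Figure D5:**
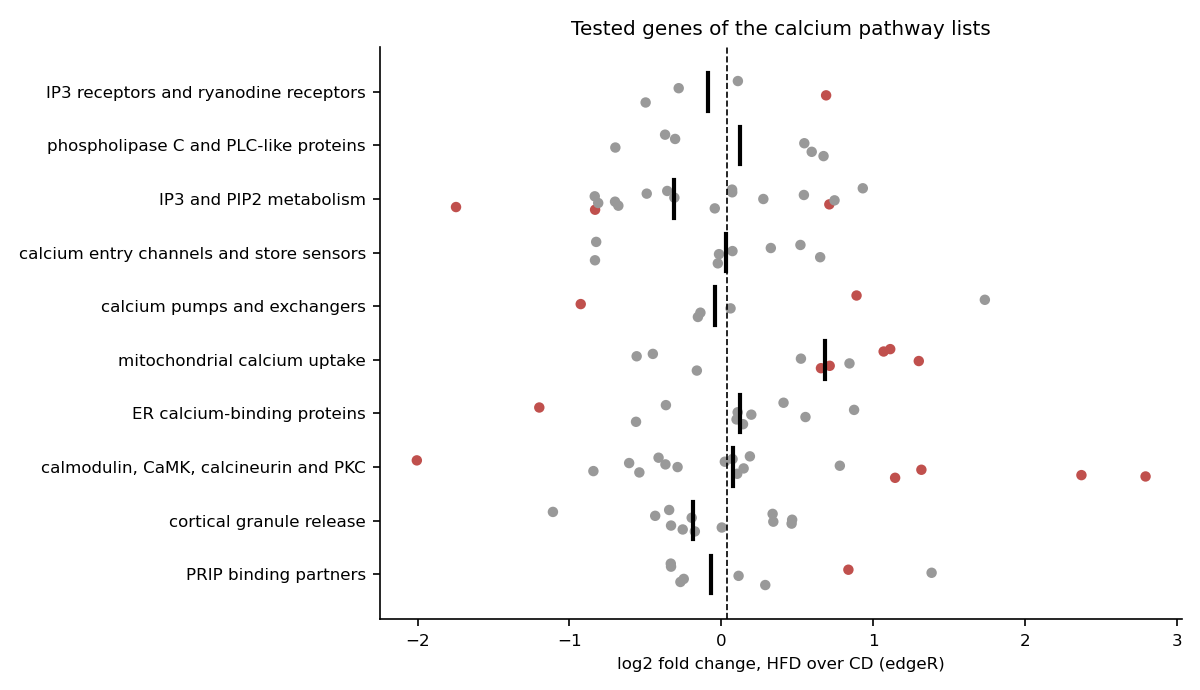
Each point is a tested gene and gives its log2 fold change of HFD over CD (horizontal axis), by pathway list (rows), in red at an unadjusted edgeR p under 0.05 and in grey otherwise. Thick black bars are list medians, from −0.31 to 0.69, and the dashed line is the median of all genes tested at 0.04; a gene on 2 lists is drawn in both.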

How the data were processed

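Per the file, the deposited table holds whole-number read counts per gene symbol for 24062 genes, not normalised, plus 5 lines of the counter's tallies of unassigned reads. The tallies made up 66.5% to 72.9% of reads in HFD libraries and 62.3% to 66.6% in CD libraries and were kept out of library sizes and tests. Per the labels' protocols, cDNA was made with the SMART-Seq v4 kit and tagmented with Nextera XT, which does not mark strand. Per the submitters' processing notes, STAR, HTSeq 1.0.0, DESeq2 1.0.19 and mm10 were used. The sources used here give neither the annotation nor the counting options. Every count in 4 HFD libraries (replicates 1, 2, 4 and 6) was even, and no CD library had this trait. In those 4 libraries the trait and the diet cannot be told apart.

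HFD was compared with CD in edgeR 4.0.16 (R 4.3.3) with TMM factors, the default filter on low counts, a robust quasi-likelihood F-test and Benjamini-Hochberg adjustment over 9935 genes at 0.05. Fold changes are HFD over CD, and SEs were taken as the fold change over the root of F. Alternatives used DESeq2 1.42.0 and limma 3.58.1. Coordinates and exon lengths came from GENCODE M21 (mm10), in which 22750 symbols matched. The fit was tested on simulated data. Marker sums were compared by exact permutation of all 12 libraries.

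The members and lists were chosen with earlier results of these data known. Named genes are the members, their paralogs, up to 2 genes of smallest p per list, the 5 genes most like Plcl1, and Gdf9, Bmp15 and Mos, and others are named as chosen after their values were seen. The result for 1 gene that this rule names is not reported here.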

Additional observations from a re-analysis of the deposited data

Results flagged for a closer look

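In groups of 6 libraries, 48 sets of values (the 9 members other than Plcl1, paralogs with a mean of at least 1 CPM and marker sums, by diet) were searched for 1 library far from the rest, and 6 had one. The rule gives about 1 in 20 by chance only for independent, normally distributed values. These sets share the same libraries and CPM need not be normal, so no excess over chance is read from the 6. HFD replicate 3 was far above the other HFD libraries for Orai1 (61.9 CPM, next 19.7), Camk2g (39.9 CPM, next 16.8) and Ppp3cc (9.87 CPM, next 1.89). Plcl1 was left out of this count because it was chosen for its near absence in HFD; HFD replicate 3 was the only HFD library with reads of it (0.199 CPM). CD replicate 3 was far above the other CD libraries for Itpr3 (7.09 CPM, next 1.997) and for the summed stroma, muscle and endothelium markers (155 CPM, next 53.1). HFD replicate 1 was far above the other HFD libraries for the summed oviduct markers (31.9 CPM, next 15.6).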

How the results depend on the processing

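No member other than Plcl1, which was not counted here, was called under any of the 22 alternatives to the edgeR comparison. The count of genes called was 0 in the comparison as reported, 769 with DESeq2, 35 with limma-voom and quality weights, and 456 with the all-even libraries left out, which leaves HFD replicates 3 and 5 against 6 CD libraries. Of the pathway genes, 8 were called with DESeq2 and 1 (Calm2, log2 fold change 3.79) with the all-even libraries left out.

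Log2 fold changes changed sign under limma-voom for Orai1 (−0.57), Atp2b1 (0.087), Camk2g (−0.20), Ryr2 (0.021) and Trpm6 (0.22). They did so without replicate 3 of both diets for Orai1 (−1.04), Trpm7 (0.046) and Camk2g (−0.10), and with each library's length trend removed for Trpm7 (0.20), Atp2a2 (0.00018), Atp2b1 (0.080) and Ryr2 (0.0090). Plcl2 stood at −0.085 without the all-even libraries. The cause was not tested. With each library left out, the values ran from −0.84 to 1.12 for Orai1, −0.20 to 0.15 for Trpm7, −0.26 to 0.060 for Atp2b1, −0.32 to 0.27 for Camk2g, −0.23 to 0.34 for Ppp3ca and −0.29 to 0.63 for Stim2. List medians ran from −0.52 to 0.069 for IP3 and ryanodine receptors, −0.22 to 0.21 for phospholipases, −0.17 to 0.17 for entry channels, −0.20 to 0.14 for pumps, −0.11 to 0.30 for endoplasmic reticulum proteins, −0.19 to 0.19 for calmodulin and kinases, −0.26 to 0.0016 for cortical granules, −0.16 to 0.032 for PRIP partners, −0.59 to −0.056 for IP3 and PIP2 metabolism and 0.56 to 0.76 for mitochondrial uptake. Summed markers, HFD minus CD, ran from −0.29 to 1.09 CPM for blood and immune, −281 to 64.8 CPM for cumulus and granulosa and −0.13 to 4.97 CPM for oviduct, and blood and immune stood at −0.078 CPM with total counts.

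The labels state no pairing of the libraries by replicate number. The correlation of same-numbered deviations ran from −0.45 to 0.55. HFD replicates 2 and 6 matched the CD library of their own number best, and the others did not. Such correlations cannot decide whether the numbers stand for a pairing in the design. With the replicate block 0 genes were called, Orai1 stood at −0.10, Ppp3ca at −0.16 and Stim2 at −0.17. Halving the all-even libraries for the Plcl1 ratio and leaving out the 4 libraries low in Gdf9 were chosen after seeing the data, and the second called 0 genes. With at most 7 reads in any library, Stim1 was limited by depth.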
